A study of Mus musculus with 19 samples.

Results

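The 9 leukocyte adhesion genes described here are Selp, Sele, Icam1, Icam2, Vcam1, Ackr1, Selplg, Itga4 and Itgb2. They were taken by symbol from the gene lists of the count tables, in which each symbol was found once among 27998 genes, and their levels were followed in every library and cell class. The libraries were single-cell RNA sequencing of the Achilles tenotomy site of mice, where a dorsal burn together with cutting of the tendon leads to heterotopic ossification, the growth of bone inside soft tissue. There were 19 libraries in 5 groups, namely day 0 (n = 4), day 3 (n = 3), day 7 (n = 4), day 21 (n = 4) and p7N3 (n = 4), a peptide that activates CD47 and was given intraperitoneally at 10 mg/kg a day for 3 days before and 3 days after the injury. The labels of p7N3 replicates 1 to 3 give harvest at day 7, and those of replicate 4 give no day. All groups carried the burn in the labels, day 0 included, although the study describes day 0 as tissue taken before injury. The labels name C57 and LysmCre/Tgfb1fx/fx mice for the series as a whole and do not give the genotype, age or vehicle of a single library. LysmCre acts in myeloid cells, so that Tgfb1 would be lost there in mice that carry it. Nothing in the labels says that replicates were separate animals. The study states that its single-cell work was done in triplicate at every time point to gauge variation between mice. It does not tie a library to an animal, so that p-values measure the spread between these libraries, which may be technical.

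Leukocytes leave the blood in steps. Selectins on the endothelium (Selp, P-selectin; Sele, E-selectin) catch passing cells by the sugars on ligands such as PSGL-1, the product of Selplg, and the cells roll. Chemokines shown on the vessel wall then switch on leukocyte integrins, among them those built on Itgb2 (CD18, the beta chain of LFA-1 and Mac-1) and on Itga4 (CD49d, the alpha chain of VLA-4). The integrins hold on to immunoglobulin-type adhesion molecules of the endothelium, with Icam1 and Icam2 as ligands of LFA-1 and Vcam1 as the ligand of VLA-4. Ackr1, the Duffy antigen receptor, binds many chemokines without signalling through G proteins and marks venules, the vessels through which most leukocytes pass.

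Cells were required to show 500 or more genes, with no more than 25% of UMIs from mitochondrial genes, and 39541 cells remained. UMIs are molecules counted once by their barcode, and a level is given here as UMIs per 1000000 of the summed UMIs of a class of cells in a library (CPM). Libraries held between 3019467 and 39870492 UMIs in these cells. Those of day 0 were the shallowest, with medians of 3414 to 4693 UMIs per cell against 6534 to 12406 in the other groups. Pairs of libraries shared at most 22 cell barcodes, and none of the shared barcodes held the same counts. Cells were clustered without the 9 genes and the other trafficking genes named below, so that the clusters were not built on the values reported here, and the classes were named from other markers. All 11 endothelial markers were detected in the 3372 endothelial-like cells of every group, with summed levels of 5491 to 5685 CPM at day 3 and 8519 to 9451 CPM at day 0.

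The endothelial-like cells of day 3 stand apart from the rest and limit what can be said of that day. There were 97 of them, and 80 lay in a subcluster that also carried monocyte and macrophage markers. All 20 markers on that list were detected at day 3 and their sum was 2486 to 3385 CPM, against 1193 to 1609 CPM at day 0, while in monocyte/macrophage-like cells of day 3 it was 39601 to 45724 CPM. The 12 granulocyte markers summed to 1329 to 2257 CPM at day 3 against 55.1 to 105 CPM at day 0. The median depth of these cells was 22665 UMIs, against 3419 in the endothelial-like cells of day 0. The part of these features in the results of day 3 was not tested.

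Selp and Sele lie 57.6 kb apart on chromosome 1 in the mm10 (GRCm38) genome, both on the plus strand, with Sele at chr1:164048234-164057677 and Selp at chr1:164115264-164150026. Ackr1 lies farther along the same chromosome at chr1:173331886-173333750 on the minus strand. The other members were Icam1 at chr9:21015985-21028817 (plus), Icam2 at chr11:106377656-106388075 (minus), Vcam1 at chr3:116109949-116129688 (minus), Selplg at chr5:113818536-113832644 (minus), Itga4 at chr2:79255426-79333123 (plus) and Itgb2 at chr10:77530252-77565708 (plus). RefSeq promoter sequences of build GRCm38.p6 were matched for 5 of the 9 genes, and those of the 4 that are made by endothelium are shown because their transcripts moved after injury. Each line is the 250 bases before the transcript start, 5′ to 3′ on the strand of the gene, at chr1:164047984-164048233 for Sele, chr1:164115014-164115263 for Selp, chr9:21015690-21015939 for Icam1 and chr1:173333504-173333753 for Ackr1. The start used for Icam1 lies upstream of the start of the gene given above. That used for Ackr1 lies inside the gene, so that the Ackr1 line falls almost wholly within the gene as given above. Capitals mark matches on either strand to GGNNNTTCC, a loose form of the sequence bound by NF-kB, a factor known to switch on selectin and Icam1 genes in inflamed vessels.
Sele: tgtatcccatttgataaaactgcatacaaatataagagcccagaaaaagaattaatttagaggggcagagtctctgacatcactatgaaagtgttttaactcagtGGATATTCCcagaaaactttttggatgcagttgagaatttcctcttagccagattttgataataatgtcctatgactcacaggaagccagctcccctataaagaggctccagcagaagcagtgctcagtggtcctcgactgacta
Selp: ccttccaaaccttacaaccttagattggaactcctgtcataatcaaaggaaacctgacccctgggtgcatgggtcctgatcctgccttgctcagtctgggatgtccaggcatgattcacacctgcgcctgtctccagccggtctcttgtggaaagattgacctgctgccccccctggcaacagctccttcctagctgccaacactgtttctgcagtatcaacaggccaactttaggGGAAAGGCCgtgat
Icam1: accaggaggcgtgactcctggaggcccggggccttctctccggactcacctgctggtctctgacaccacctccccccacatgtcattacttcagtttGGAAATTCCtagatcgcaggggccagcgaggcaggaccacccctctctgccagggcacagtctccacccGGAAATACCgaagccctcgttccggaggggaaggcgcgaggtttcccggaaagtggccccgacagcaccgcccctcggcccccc
Ackr1: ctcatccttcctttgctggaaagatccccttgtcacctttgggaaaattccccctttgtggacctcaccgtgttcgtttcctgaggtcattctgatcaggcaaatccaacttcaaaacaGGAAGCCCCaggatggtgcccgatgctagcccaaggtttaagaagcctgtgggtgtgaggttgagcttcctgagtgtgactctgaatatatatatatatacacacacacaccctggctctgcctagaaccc
A match that read the same on both strands was counted once. The match began 145 bases before the start in Sele, 14 bases before it in Selp, 153 and 84 bases before it in Icam1 and 131 bases before it in Ackr1, and the Itga4 promoter held none. Of all 32851 promoters in the table, 5144 (15.7%) held at least 1 match, so that a match is common and is given only as a description of the sequence. No promoter is shown for Icam2, Vcam1, Selplg and Itgb2.

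The 9 genes divided by cell class. Means over libraries with at least 10 cells of a class are a description, levels are compared here between classes for the same gene, and the days of the libraries behind a mean differ between classes. In venular-like endothelial cells the level of Selp was 1018 CPM, that of Sele 207 CPM and that of Ackr1 1210 CPM. In capillary-like cells, the vessels of gas and lipid exchange, the same genes were at 13.9, 0.389 and 5.40 CPM, means that each rest largely on 1 of 11 libraries. Selp was at 0 in 7 of the 11, Sele in 10 and Ackr1 in 6. Without p7N3 replicate 3 Selp was at 3.18 CPM, without day 21 replicate 1 Sele was at 0, and without day 7 replicate 3 Ackr1 was at 0.884 CPM. Arterial-like cells had a Selp UMI in 1 of 9 libraries with at least 10 such cells and no Sele UMI in any of these, so that these subsets are not ranked for the 3 genes. Selp, Sele and Ackr1 were the 3 genes that led the venular-like subset by fold, although none of them had entered the clustering. Icam1 was found more widely, from 473 CPM in venular-like cells to 81.5 CPM in monocyte/macrophage-like and 42.8 CPM in stromal-like cells. Icam2 was highest in arterial-like cells at 523 CPM, followed by capillary-like cells at 376 CPM, and was at 198 CPM in venular-like cells. Vcam1 was at 205 ± 83.5 CPM in skeletal muscle-like (n = 10 libraries), 167 ± 81.2 CPM in venular-like (n = 13) and 107 ± 57.1 CPM in stromal-like cells (n = 18), neighbours that did not differ beyond their spread.

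The 3 leukocyte genes were low in every endothelial subset and differed in their place among leukocytes. Selplg was highest in plasmacytoid dendritic cell-like cells at 1384 ± 185 CPM (SD, n = 9 libraries), followed by T/NK lymphocyte-like cells at 556 ± 104 CPM (n = 13) and dendritic cell-like cells at 534 CPM, a pair that did not differ beyond the spread. Granulocyte-like cells followed at 352 ± 120 CPM (n = 8) and monocyte/macrophage-like cells at 146 CPM (n = 19). Itgb2 was led by granulocyte-like cells at 246 ± 41.2 CPM (n = 8), with monocyte/macrophage-like cells at 191 ± 27.7 CPM (n = 19) and T/NK lymphocyte-like cells at 178 ± 52.4 CPM (n = 13) within each other's spread. Itga4 had no clear leader. B lymphocyte-like cells had libraries of at least 10 cells at day 0 alone, at 109 ± 81.2 CPM (n = 4), when T/NK lymphocyte-like cells were at 161 ± 68.01 CPM (n = 3) and dendritic cell-like cells at 107 CPM in 1 library. Over all days T/NK lymphocyte-like cells were at 79.5 ± 61.5 CPM, dendritic cell-like cells at 63.9 ± 33.4 CPM and plasmacytoid cells at 57.5 ± 22.3 CPM. Of single clusters, a dendritic cell-like one held 201 ± 49.6 CPM of Itga4, and a macrophage-like cluster led by Mmp12 held 427 ± 86.4 CPM of Itgb2 against 124 ± 19.4 CPM in the macrophage-like cluster led by Cd163.

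**Figure D1:**
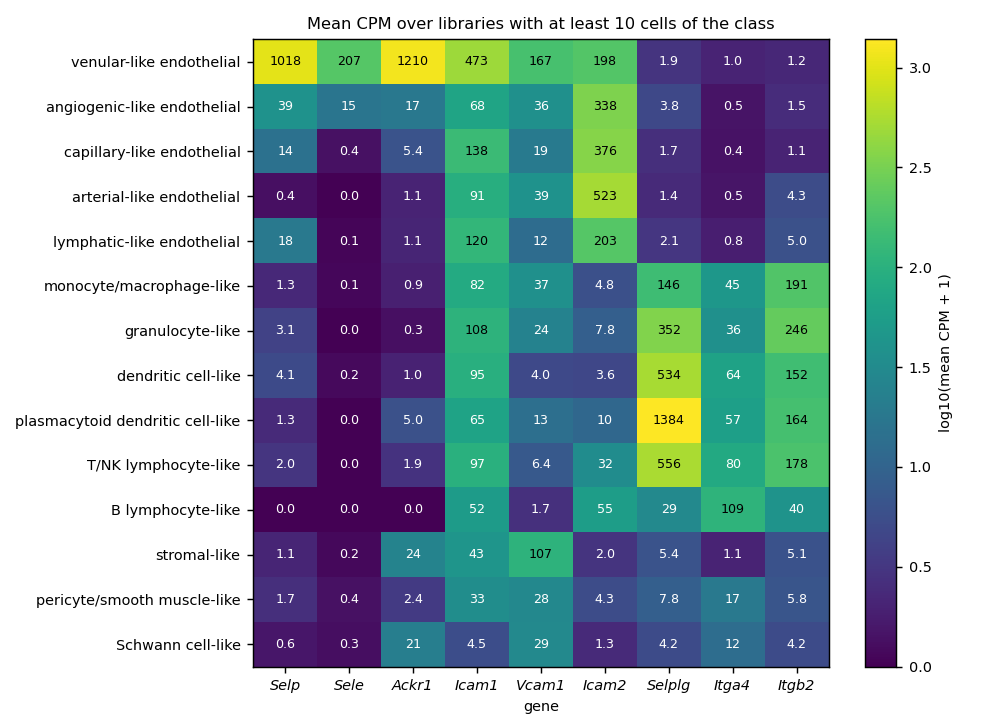
Heat map of the mean level (CPM, printed in each cell; colour is log10 of the mean plus 1) of each gene (columns) in each cell class (rows), over libraries with at least 10 cells of the class. Selp, Sele and Ackr1 fill the venular-like row (1018, 207 and 1210 CPM), whereas Selplg, Itga4 and Itgb2 fill the leukocyte rows.

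Genes whose pattern over the 32 clusters was most like a member were searched for among 7671 genes, with the Pearson correlation of mean log2(CPM + 1) as the measure; clusters share libraries and cells of related type, and the values are a description. Selp was most like Grrp1 (r = 0.90), Tmem252 (0.89) and Robo4 (0.88), and Sele was most like Tmem252 (0.92), Selp (0.88) and Aplnr (0.86). Icam2 was most like Pecam1 (0.93), which codes for an adhesion molecule of endothelial junctions, then Gimap5 (0.91) and Myct1 (0.90). Icam1 was most like H2-M3 (0.81), H2-T23 (0.79) and Cmip (0.79). Vcam1 had no close match, with Ttyh2 (0.75), Gpx3 (0.74) and Lrrc17 (0.74) nearest, and for Ackr1 Cadm3 (0.81) was nearest, then Efhd1 (0.76) and Ace (0.71). For the leukocyte genes, Selplg was most like Runx3 (0.96), Epsti1 (0.95) and Stxbp2 (0.95), Itga4 was most like Dock8, Arhgap30 (both 0.91) and Gpr132 (0.90), and Itgb2 was most like Arhgap9 (0.98) and Cd53 (0.97).

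In endothelial-like cells the vascular adhesion genes rose after injury and Icam2 did not. Every comparison with day 0 uses the same 4 day 0 libraries, so that these comparisons are not independent of each other. At day 3, 8 of the 9 genes passed the filter on low counts, and all 8 were called by edgeR's quasi-likelihood test at a Benjamini-Hochberg adjusted p under 0.05, 7 higher and 1 lower, beside 55.8% of 9084 genes tested. The higher calls of day 3 include Selplg and Itgb2, from which no change of expression is read below. Both also enter the day 3 median given in this paragraph. At day 7, 6 were tested and 6 were called, 5 higher and 1 lower, beside 59.3% of 9294 genes. At day 21, 6 were tested and 5 were called, all higher, beside 28.1% of 9113 genes. So large a share of all genes was called that the count of members at days 3 and 7 says little by itself, and the size of the changes is given for each gene. The median log2 fold change of the members tested was 3.10 at day 3, 2.35 at day 7 and 2.94 at day 21, with medians over all genes of -0.03, -0.01 and 0.00. Selp, Sele and Ackr1 had 84, 17 and 88 UMIs over the day 0 libraries. Whether they passed the filter therefore leaned on the later groups, where they were high. The medians and the counts of members called are a description and not a test of the set. Between day 21 and day 7, 2 of 7 were called, both higher, beside 30.7% of 10268 genes.

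Selp was low in the endothelial-like class of day 0 taken as a whole. Its levels there were 43.9, 0.840, 10.0 and 8.54 CPM, at day 3 they were 336, 252 and 390 CPM, at day 7 241, 93.5, 104 and 98.3 CPM, and at day 21 313, 204, 255 and 446 CPM. No library of days 3, 7 or 21 overlapped with day 0, and day 0 replicate 1 was above its group. In barcodes of at most 100 UMIs of day 0 replicate 1, which stand for RNA free in the suspension, Selp was at 8.69 CPM. Day 0 replicates 3 and 4 lay near that value and replicate 2 lay below it, but their own free RNA was not measured. The log2 fold change against day 0 was 4.44 at day 3 (SE 0.46, adjusted p = 5.18e-06), 3.09 at day 7 (SE 0.54, adjusted p = 0.000252) and 4.27 at day 21 (SE 0.49, adjusted p = 0.000125). Selp was higher at day 21 than at day 7, by a log2 fold change of 1.18 (SE 0.32, adjusted p = 0.0144), a call that was lost when replicates 1 to 3 alone were used (0.81, adjusted p = 0.0813). After each cell was thinned to 1500 UMIs, 1.11% of 994 endothelial-like cells of day 0 held a Selp UMI, 25.8% of 97 at day 3, 12.8% of 736 at day 7 and 15.2% of 765 at day 21, where unthinned shares were 1.80%, 51.5%, 32.3% and 26.1%. In monocyte/macrophage-like cells, with median depths of 3740 to 9721 UMIs on these days, the thinned share was at most 0.292%. Thinned shares are tied to the depth of 1500 UMIs, as given below. Of all Selp UMIs in a library, 88.2% ± 18.4 (SD, n = 19) lay in endothelial-like cells. That class held 31.6% of all UMIs at day 0 and 3.33% to 11.5% in the other groups.

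Platelets also hold P-selectin, and platelet markers were measured in the endothelial-like cells. At day 3, Gp9, Gp1ba, Treml1 and Clec1b were all at 0 UMIs and 3 of 7 markers were detected. The 7 markers summed to 812 to 995 CPM at day 3 and to 2069 to 2519 CPM at day 0, and the part of platelets in the Selp values was not tested.

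Sele was also higher after injury. Day 0 libraries held 10.42, 2.52, 0 and 0 CPM (17 UMIs in all), day 3 libraries 47.3, 20.1 and 36.1 CPM, day 7 libraries 54.4, 31.2, 30.6 and 25.2 CPM, and day 21 libraries 49.6, 27.1, 27.3 and 77.5 CPM. The groups after injury did not overlap with day 0 and overlapped with each other. The log2 fold change was 3.47 at day 3 (SE 0.63, adjusted p = 0.000474), 3.46 at day 7 (SE 0.56, adjusted p = 0.000143) and 3.83 at day 21 (SE 0.64, adjusted p = 0.00104). The difference between days 21 and 7 was 0.38 (95% interval -0.34 to 1.10, adjusted p = 0.419).

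Icam1, in contrast, was already present at day 0 and its rise was smaller. Its levels were 98.2, 73.9, 91.1 and 71.2 CPM at day 0, 295, 345 and 327 CPM at day 3, 143, 84.1, 136 and 134 CPM at day 7 and 245.5, 180.2, 214 and 276 CPM at day 21. Free RNA of day 0 replicate 1 held 59.5 CPM of Icam1, below the 98.2 CPM of its endothelial-like cells. Day 3 was the highest group, day 7 overlapped with day 0 through its replicate 2, and day 21 lay above both. The log2 fold changes were 2.07 at day 3 (SE 0.13, adjusted p = 1.08e-07), 0.59 at day 7 (SE 0.17, adjusted p = 0.0100) and 1.49 at day 21 (SE 0.15, adjusted p = 8.37e-05). From day 7 to day 21 it rose by 0.90 (SE 0.18, adjusted p = 0.00279). The call at day 7 was lost when only replicates 1 to 3 were used (0.46, adjusted p = 0.0777) and when subclusters with markers of other cell types were left out (0.37, adjusted p = 0.0822).

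Vcam1 followed the same order of days. Its levels were 16.4, 23.5, 15.0 and 9.25 CPM at day 0, 95.7, 111 and 85.5 CPM at day 3, 47.6, 34.5, 77.0 and 28.6 CPM at day 7 and 87.9, 55.6, 65.8 and 92.7 CPM at day 21. All 11 libraries after injury lay above the 4 of day 0. Free RNA of day 0 replicate 1 held 29.7 CPM of Vcam1, above the 16.4 CPM of its endothelial-like cells. The log2 fold changes were 2.74 (SE 0.22, adjusted p = 6.42e-07), 1.61 (SE 0.33, adjusted p = 0.000958) and 2.30 (SE 0.25, adjusted p = 9.42e-05) at days 3, 7 and 21. The difference of 0.70 between days 21 and 7 did not pass the threshold (SE 0.26, adjusted p = 0.0642), with day 7 replicate 3 the highest of its group; without that library it was 1.02 (adjusted p = 0.00778), and without day 21 replicate 2 it was 0.83 (adjusted p = 0.0401).

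Icam2, a ligand of LFA-1 that resting endothelium makes all the time, went the other way by a small amount. It was at 385, 354, 362 and 350.2 CPM at day 0, 219, 272 and 244 CPM at day 3, 303, 287, 265 and 318 CPM at day 7 and 319, 348, 345 and 299.6 CPM at day 21. Days 3 and 7 lay wholly below day 0. It fell by 0.44 on the log2 scale at day 3 (SE 0.11, adjusted p = 0.00355) and by 0.29 at day 7 (SE 0.08, adjusted p = 0.00878), and the value at day 21 was -0.12 (95% interval -0.29 to 0.05, adjusted p = 0.281).

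**Figure D2:**
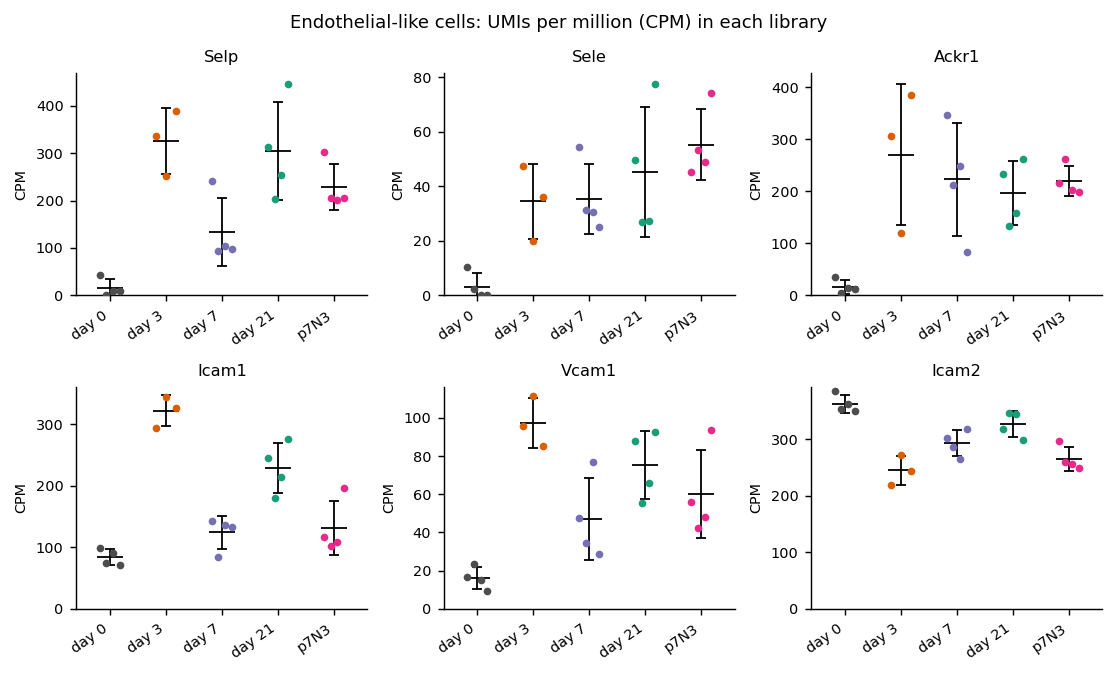
Level (CPM, linear axis from 0) of 6 genes in endothelial-like cells, with 1 point a library and the mean ± SD of each group. Selp, Sele, Ackr1 and Vcam1 of day 0 lie below all other libraries, Icam1 peaks at day 3 (295 to 345 CPM), and Icam2 is highest at day 0.

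The make-up of the endothelial-like class also moved between days, and its part in the changes above was not tested. Venular-like cells were 2.35% ± 0.886 of endothelial-like cells at day 0 (26 cells), 19.5% ± 2.65 at day 7, 19.8% ± 8.48 at day 21 and 17.1% ± 1.69 in p7N3, and 1 such cell was found at day 3. The 80 day 3 cells that also carried monocyte and macrophage markers held most of the 3 venular genes of that day. They had 899 of 952 Selp UMIs, 101 of 102 Sele UMIs and 774 of 799 Ackr1 UMIs of endothelial-like cells. Whether these cells were venular was not tested. Capillary-like cells were 68.3% ± 2.49 at day 0, 4.005% ± 2.73 at day 7 and 31.4% ± 13.5 at day 21. Angiogenic-like cells, with Kit and Apln (a signal of sprouting vessels) among their leading genes, were 40.8% ± 4.56 at day 7 and 11.8% ± 8.97 at day 21. At day 0 the subset that held Selp was already there. Venular-like cells of day 0 replicate 1, the only day 0 library with 10 of them, had 1110.5 CPM of Selp, 273 CPM of Sele and 916 CPM of Ackr1. The other 3 day 0 libraries had 4 to 7 such cells and 0, 176 and 352 CPM of Selp, and 57 of the 69 Selp UMIs of these 26 cells came from replicate 1, in whose 10 cells monocyte/macrophage markers summed to 3078 CPM. All 26 cells pooled gave 590 CPM, beside 680 CPM in the 145 venular-like cells of day 7; no test could be made with 1 library. In capillary-like cells no Selp UMI was found in the 4 day 0 libraries (757 cells).

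Within venular-like cells Selp, Icam1 and Vcam1 rose from day 7 to day 21, as the only 3 called of 6 members tested, beside 16.3% of 4350 genes called. Selp was at 845, 505, 582 and 584 CPM at day 7 and at 1313, 1244, 1567 and 1414 CPM at day 21, with no overlap (log2 fold change 1.22, SE 0.14, adjusted p = 2.37e-06). Icam1 was at 336, 249.8, 361 and 272 CPM and then at 535, 876, 879 and 660 CPM (1.35, SE 0.17, adjusted p = 6.33e-06). Vcam1 was at 117, 74.6, 110.3 and 62.4 CPM and then at 291, 310, 212 and 250.2 CPM (1.57, SE 0.19, adjusted p = 4.75e-06). The groups of these 3 genes did not overlap. Sele (0.30, 95% interval -0.05 to 0.66), Ackr1 (-0.37, -0.84 to 0.11) and Icam2 (-0.03, -0.36 to 0.29) did not pass the threshold. For Ackr1 the call depended on the setting, since replicates 1 to 3 alone gave -0.56 (adjusted p = 0.0119).

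**Figure D3:**
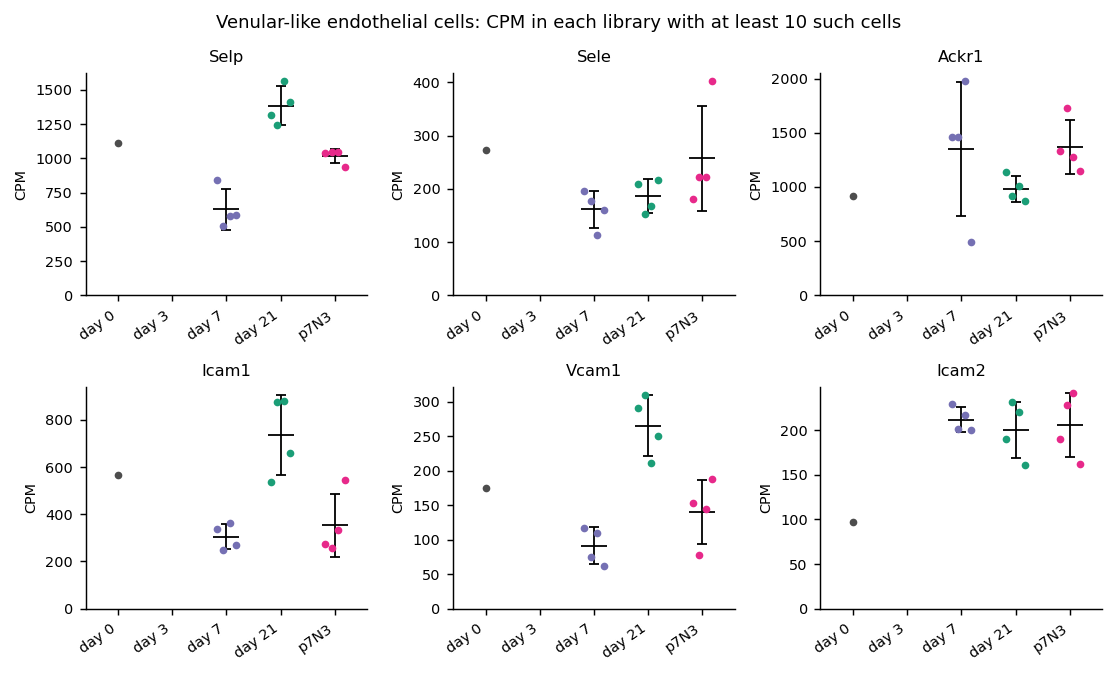
Level (CPM) of 6 genes in venular-like endothelial cells, with 1 point for each library with at least 10 such cells and the mean ± SD where a group has several; day 0 has 1 library and day 3 none. Selp, Icam1 and Vcam1 of day 21 lie above all day 7 libraries, and Ackr1, Sele and Icam2 overlap.

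Angiogenic-like cells, the largest subset of day 7, had 6 members tested between days 21 and 7 and none called, beside 3.9% of 7308 genes, with 1347 genes at an unadjusted p under 0.05. The median log2 fold change of these 6 was -0.53, beside 0.00 over all genes. Selp was at 64.7, 28.9, 31.4 and 12.5 CPM at day 7 and at 5.51, 3.53 and 53.2 CPM in the 3 day 21 libraries with at least 10 such cells (-0.43, 95% interval -1.66 to 0.79, adjusted p = 0.760). Icam1 (-0.63, -1.32 to 0.05) and Vcam1 (-0.83, -2.03 to 0.37) also had values below 0 there, unlike those of venular-like cells, a difference between subsets that was not tested. With p7N3 against day 7, 0 of 6 members and 0 of 7832 genes (0%) were called in angiogenic-like cells, with 623 genes at an unadjusted p under 0.05.

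In the capillary-like, lymphatic-like and arterial-like subsets mainly Icam1 and Icam2 had enough counts to be tested. Icam1 of capillary-like cells was at 79.98, 41.4, 67.0 and 34.2 CPM at day 0 and at 276 and 539 CPM in the 2 day 7 libraries with at least 10 cells (13 and 12 cells), a log2 fold change of 2.73 (SE 0.35, adjusted p = 5.73e-06; 1 of 3 members called, beside 4.24% of 7576 genes). It was then lower at day 21 (-2.06, SE 0.44, adjusted p = 0.0407), at 49.5 to 163 CPM, again against those 2 libraries. The capillary-like cells lay in 2 subclusters, and the larger one held most of them at day 0 and day 21. The smaller one, led by Iigp1 and Irf1 and with Atf3 and Ier2, which respond early to stress, had no capillary marker among its 10 leading genes and held 61 of 757 capillary-like cells at day 0, 17 of 30 at day 7 and 32 of 233 at day 21. Its pooled Icam1 was 222 CPM at day 0, 539 CPM at day 7 and 274 CPM at day 21, whereas the larger one held 41.3, 16.4 (1 UMI in 13 cells) and 59.6 CPM. The change within the whole subset and the mix of its subclusters cannot be told apart. In lymphatic-like cells Icam1 moved the opposite way. It was at 316 and 279.7 CPM in the 2 day 0 libraries with 13 cells each and at 35.6 to 93.6 CPM in the 4 day 7 libraries (-2.56, SE 0.33, adjusted p = 8.31e-05; 1 of 2 members called, beside 22% of 4550 genes). In arterial-like cells both members tested were higher at day 21 than at day 0 (2 of 2, beside 7.75% of 3344 genes), Icam1 by 1.49 (SE 0.44, adjusted p = 0.0428) and Icam2 by 0.53 (SE 0.14, adjusted p = 0.0296). With replicates 1 to 3 alone neither passed (adjusted p = 0.0946 and 0.0983). The arterial-like cells lay in 2 subclusters. The larger one, led by Ifit3 and with 1 arterial marker among its 10 leading genes, held 173 cells at day 0 and 110 at day 21. The smaller one held 6 and 16, and the part of this mix was not tested.

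The share of Ackr1 UMIs by cell class changed after injury. In endothelial-like cells it was at 35.7, 4.20, 14.2 and 12.8 CPM at day 0, 306, 120 and 385 CPM at day 3, 347, 213, 249 and 83.7 CPM at day 7 and 233, 134, 158 and 263 CPM at day 21. Every library after injury lay above those of day 0, with log2 fold changes of 4.10 (SE 0.45, adjusted p = 7.59e-06), 3.75 (SE 0.47, adjusted p = 1.48e-05) and 3.57 (SE 0.38, adjusted p = 9.38e-05). Stromal-like cells went the other way. They held 61.9, 78.02, 71.4 and 76.7 CPM at day 0, 16.6 and 14.5 CPM in the 2 day 3 libraries with at least 10 cells, 11.8, 3.43, 6.48 and 4.47 CPM at day 7 and 23.2, 13.9, 19.2 and 7.59 CPM at day 21. The log2 fold changes were -2.22 (SE 0.25, adjusted p = 3.63e-06), -3.46 (SE 0.31, adjusted p = 1.07e-06) and -2.14 (SE 0.27, adjusted p = 4.11e-05), and from day 7 to day 21 Ackr1 rose again in these cells (1.34, SE 0.42, adjusted p = 0.0300; 5 of 8 members called, beside 35.6% of 12985 genes). Of the 5 members called there, 2 were higher and 3 lower, and only Ackr1 is described here. Of a library's Ackr1 UMIs, 81.3% ± 7.15 lay in stromal-like and 14.8% ± 8.14 in endothelial-like cells at day 0 (n = 4). At day 7 (n = 4), 74.6% ± 15.2 lay in endothelial-like cells. Of all UMIs, stromal-like cells held 34.9% and endothelial-like cells 31.6% at day 0, and endothelial-like cells 6.88% at day 7.

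At day 0 the stromal Ackr1 lay mainly in 1 cluster. That cluster was led by Myoc and made up 98.7% ± 0.936 of stromal-like cells at day 0, 3.90% ± 3.07 at day 7, 22.3% ± 11.7 at day 21 and 3.53% ± 1.61 in p7N3. Within it Ackr1 stayed at 72.7 ± 7.83 CPM at day 0, 95.6 ± 17.5 CPM at day 7, 80.4 ± 25.5 CPM at day 21 and 112 ± 41.0 CPM in p7N3 (SD, n = 4 each). In a large stromal-like cluster of day 7, led by C1qtnf3, it was at 0.965 ± 0.548 CPM. The Myoc cluster held 201 of the 5676 stromal-like cells of day 7, and 6.61% of the 5676 had an Ackr1 UMI. Other clusters therefore held some of it at that time. The free RNA of day 0 replicate 1 held 18.7 CPM of Ackr1, below the 61.9 CPM of its stromal-like cells. The thinned share of stromal-like cells with an Ackr1 UMI was 10.8% of 1078 cells at day 0 and 1.39% of 5676 at day 7 (unthinned 24.5% and 6.61%, at median depths of 5173 and 13883 UMIs), while in monocyte/macrophage-like cells of day 0 it was 0.280% at a median depth of 3740 UMIs.

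**Figure D4:**
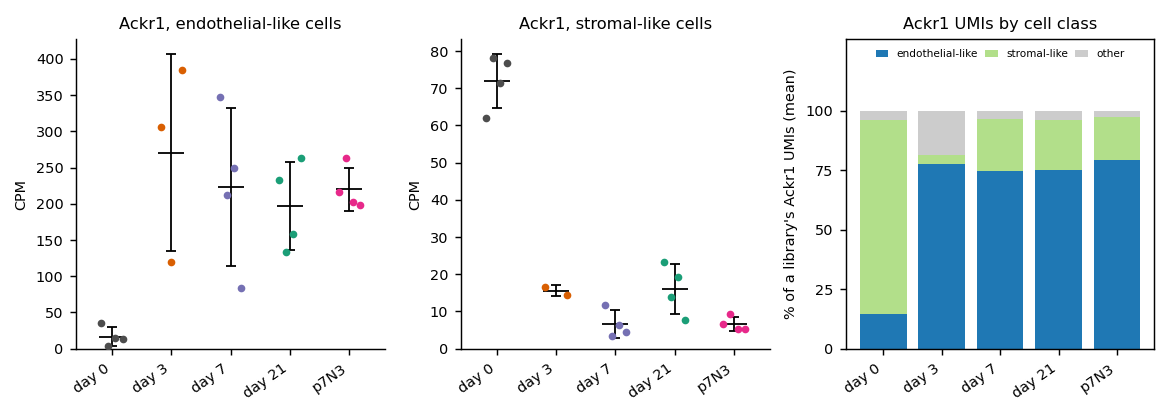
Ackr1 in endothelial-like (left) and stromal-like cells (middle), in CPM with 1 point a library of at least 10 cells and the mean ± SD, and the mean share of a library's Ackr1 UMIs by class (right, percent). Endothelial levels are lowest and stromal levels highest at day 0, where 81.3% of Ackr1 UMIs lie in stromal-like cells.

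Stromal-like cells were also a site of Vcam1 and Icam1. At day 3 they held a small share of both, and 1.82% of all UMIs. In this class 5 of 5 members tested were called at day 3 (37.6% of 9203 genes), 6 of 6 at day 7 (54.8% of 12574 genes) and 3 of 3 at day 21 (38.2% of 10697 genes). Of these calls, 3 were higher and 2 lower at day 3, 3 and 3 at day 7, and 1 and 2 at day 21. At day 7 the called members other than Vcam1, Icam1 and Ackr1 are not described here, and no change is read from them. The higher calls of day 3 include Selplg and Itgb2, from which no change of expression is read below. Vcam1 was at 57.6, 28.1, 31.0 and 21.3 CPM at day 0, 195 and 257 CPM at day 3, 132, 70.4, 115 and 99.3 CPM at day 7 and 122, 103, 104 and 117 CPM at day 21. All libraries after injury lay above day 0, with log2 fold changes of 2.65 (SE 0.25), 1.54 (SE 0.26) and 1.67 (SE 0.21) and adjusted p-values of 5.30e-07, 0.000241 and 3.77e-05. Stromal Icam1 fell, unlike that of endothelium, by 0.98, 1.59 and 0.88 on the log2 scale (SE 0.23, 0.24 and 0.15, adjusted p = 0.00297, 9.15e-05 and 0.000382), from 66.5 to 99.7 CPM at day 0 to 17.5 to 34.8 CPM at day 7. The day 3 call of Icam1 was lost with all 5 groups in a single fit (-0.98, adjusted p = 0.0560). The Myoc cluster was 98.7% of stromal-like cells at day 0 and 3.90% at day 7. The part of this shift in the Vcam1 and Icam1 changes was not tested. At day 3, cells of clusters left unnamed held 70.5% ± 5.43 of a library's Vcam1 UMIs (SD, n = 3). Stromal-like cells then held 5.5% and endothelial-like cells 4.37%. For Icam1 the unnamed share was 21.4%, with 57.1% in monocyte/macrophage-like and 0.703% in stromal-like cells. Stromal-like cells held 78.4% of Vcam1 UMIs at day 7 and 55.8% at day 21, when unnamed cells held 2.83% and 21.9%. Members were not tested in unnamed cells. In pericyte/smooth muscle-like cells 0 of 3 members were called at day 7, beside 46.7% of 7710 genes. Between days 21 and 7, 2 of 4 were called there, 1 higher and 1 lower, beside 31.1% of 9227 genes, and are not named here. Pericyte/smooth muscle-like cells had 1 of 1 member called at day 3 (Icam1, 1.18, SE 0.34, adjusted p = 0.00884; background 57.2% of 3967 genes) and 1 of 3 at day 21 (Vcam1, 1.59, SE 0.52, adjusted p = 0.0261; background 31.7% of 6171 genes), and the latter was lost at a limit of 10% mitochondrial UMIs (1.15, adjusted p = 0.147).

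The leukocyte genes Selplg and Itgb2 were called higher in endothelial-like cells at day 3, by 3.94 (SE 0.45, adjusted p = 1.24e-05) and 2.50 (SE 0.37, adjusted p = 9.56e-05) on the log2 scale, but at the level of cells that should lack them. Pooled Selplg at day 3 was 23.4 CPM in endothelial-like, 19.9 CPM in stromal-like and 15.5 CPM in pericyte/smooth muscle-like cells, against 145 CPM in monocyte/macrophage-like cells. Pooled Itgb2 was 21.7, 20.5 and 19.6 CPM in the same 3 classes and 217 CPM in monocyte/macrophage-like cells. The macrophage gene Lyz2 showed the same levelling at 880, 953 and 815 CPM, whereas the endothelial gene Cdh5 did not, at 752, 5.86 and 7.74 CPM. No change of expression is read from these 2 calls, nor from those of stromal-like Selplg (4.19, adjusted p = 2.35e-05) and Itgb2 (3.42, adjusted p = 0.000182) at day 3, and the source of these UMIs was not tested. Itga4 was at 0 to 3.09 CPM in endothelial-like cells of all 19 libraries and was not tested there.

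On the leukocyte side, in monocyte/macrophage-like cells (14535 cells), the integrin genes were called in some comparisons with day 0 and Selplg in none. At day 3, 3 of 5 members tested were called (2 higher, 1 lower; 53.2% of 6328 genes), at day 7, 4 of 6 (2 higher, 2 lower; 35.4% of 9434 genes) and at day 21, 3 of 5 (1 higher, 2 lower; 25.4% of 6936 genes). Selplg was at 163, 162, 159 and 156 CPM at day 0, 150.0, 139 and 148 CPM at day 3, 141, 142, 153 and 129.98 CPM at day 7 and 155, 174, 140.5 and 135 CPM at day 21. In CPM, every library of days 3 and 7 lay below those of day 0, and day 21 overlapped with day 0. The fold changes are scaled by TMM factors, which CPM does not use. Against day 0 the log2 fold changes of Selplg were -0.08, 0.02 and 0.01, with 95% intervals of -0.30 to 0.14, -0.22 to 0.27 and -0.25 to 0.28.

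Itga4 was lower in monocyte/macrophage-like cells after injury. It was at 72.2, 93.4, 74.8 and 84.0 CPM at day 0, 28.7, 30.8 and 28.0 CPM at day 3, 39.2, 27.2, 39.9 and 30.2 CPM at day 7 and 41.0, 52.3, 54.7 and 41.2 CPM at day 21. Every library after injury lay below those of day 0. Itga4 fell by 1.39 (SE 0.14, adjusted p = 4.31e-06), by 1.03 (SE 0.18, adjusted p = 0.000236) and by 0.66 (SE 0.17, adjusted p = 0.00677) on the log2 scale, and with replicates 1 to 3 alone the value at day 21 was -0.58 (adjusted p = 0.0542). Itgb2 rose by 0.47 (SE 0.11, adjusted p = 0.00351) at day 3, when its libraries held 205 to 226 CPM against 143 to 181 CPM at day 0. It rose by 0.49 (SE 0.14, adjusted p = 0.0137) at day 7, when 1 of 4 libraries lay within the range of day 0, and the value at day 21 was 0.26 (95% interval -0.04 to 0.57).

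The endothelial ligands Vcam1 and Icam1 also had a place in monocyte/macrophage-like cells. Vcam1 was at 15.7, 6.91, 0 and 12.4 CPM at day 0, 27.2, 29.7 and 23.1 CPM at day 3, 50.8, 39.7, 48.7 and 36.3 CPM at day 7 and 76.4, 39.5, 43.3 and 52.3 CPM at day 21. It rose by 1.44 (SE 0.38, adjusted p = 0.00609), 2.30 (SE 0.35, adjusted p = 6.47e-05) and 2.48 (SE 0.40, adjusted p = 0.000182). Icam1 was at 99.6 to 159 CPM at day 0 and overlapped with it at day 3 (105 to 124 CPM), then fell by 0.97 at day 7 (SE 0.14, adjusted p = 5.44e-05) and by 1.27 at day 21 (SE 0.17, adjusted p = 3.69e-05), when the libraries held 40.2 to 61.5 CPM.

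The mix of clusters in this class also moved. The cluster led by Cd163, a receptor of tissue macrophages, made up 79.8% ± 3.80 of monocyte/macrophage-like cells at day 0, 2.27% ± 1.25 at day 3, 14.6% ± 5.50 at day 7 and 42.6% ± 10.3 at day 21. A cluster led by Chil3, a marker of monocytes, was 41.8% ± 7.27 of them at day 3. Within the Cd163 cluster the pooled level of Itga4 was 61.4 CPM at day 0, 15.9 CPM at day 3, 36.6 CPM at day 7 and 50.2 CPM at day 21, and that of Vcam1 was 14.04, 24.2, 103 and 94.0 CPM, in the directions of the whole class. In the cluster led by Chil3, the pooled level of Vcam1 was 6.36 CPM at day 3 and 4.67 CPM at day 7. Values of Itgb2 and Icam1 by day within these clusters are not given here. The part of the cluster mix in the changes of this class was not tested.

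**Figure D5:**
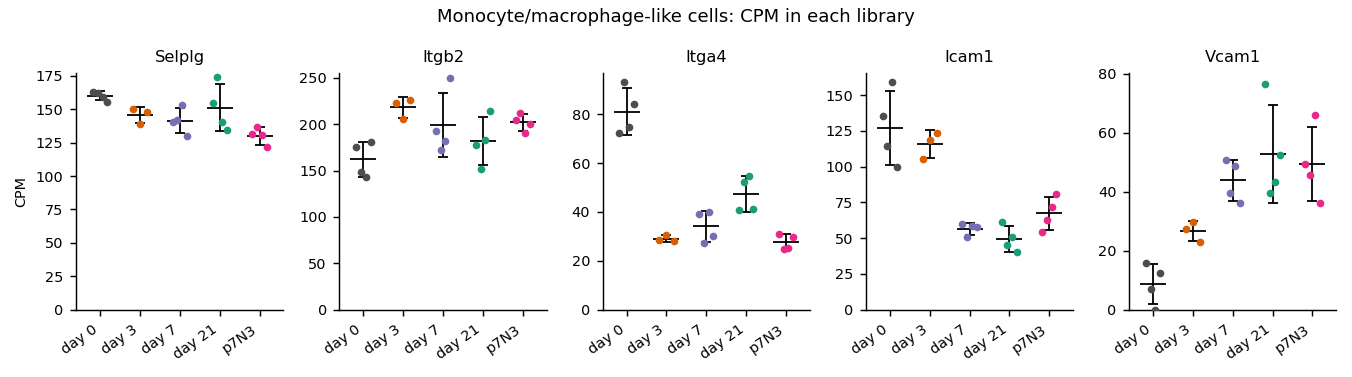
Level (CPM, linear axes from 0) of 5 genes in monocyte/macrophage-like cells, with 1 point a library and the mean ± SD of each group. Itga4 is highest at day 0 (72.2 to 93.4 CPM), Vcam1 lowest at day 0 (0 to 15.7 CPM), and the Selplg groups lie between 121 and 174 CPM.

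Other leukocytes gave fewer comparisons, since at least 2 libraries with 10 cells were needed in both groups. In T/NK lymphocyte-like cells 1 of 4 members tested was called at day 7 (12.7% of 2384 genes, 5.45% higher and 7.21% lower). This was Itga4, at 224, 171 and 88.7 CPM in the 3 day 0 libraries with at least 10 cells and at 51.4, 39.2, 74.4 and 35.7 CPM at day 7 (log2 fold change -1.91, SE 0.46, adjusted p = 0.0164). The call was lost without a filter on low counts (-1.36, adjusted p = 0.0565) and with replicates 1 to 3 alone (-2.07, adjusted p = 0.0608). Granulocyte-like cells, the class that holds neutrophils, were found mainly at day 3 (308 of 424), where Selplg was at 448, 448 and 504 CPM, Itgb2 at 273, 273 and 296 CPM and Itga4 at 39.6, 33.1 and 43.4 CPM. Day 0 and day 21 held under 10 granulocyte-like cells in every library, so that no comparison with those days was made. In the 2 day 7 libraries with 11 cells each, Selplg was at 371 and 161 CPM, Itgb2 at 253 and 279 CPM and Itga4 at 84.3 and 14.7 CPM, and day 7 was not tested against day 3. In dendritic cell-like cells no member of 4 was called between days 21 and 7, beside 4.03% of 4621 genes (2.79% higher and 1.23% lower).

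Treatment with p7N3 was compared with day 7, the same 4 libraries used above. No member was called in any class. In stromal-like cells 0 of 8 members and 2 of 13488 genes (0.0148%) were called, and in pericyte/smooth muscle-like cells 0 of 4 and 1 of 9385 (0.0107%). Of all genes 0 of 6723 were called in dendritic cell-like, 0 of 3507 in T/NK lymphocyte-like and 0 of 4720 in lymphatic-like cells. So few genes were called that the lack of a call says little about the members. In endothelial-like cells 0 of 7 members and 0 of 10266 genes were called (0%) by edgeR, and 0 genes by DESeq2, with 805 genes at an unadjusted p under 0.05. Selp was at 302, 206, 202 and 206 CPM with p7N3 and at 241, 93.5, 104 and 98.3 CPM at day 7, and day 7 replicate 1 was the library that overlapped. The log2 fold change was 0.73 (95% interval 0.15 to 1.31, adjusted p = 0.565), and without day 7 replicate 1 it was 1.22 (adjusted p = 0.0163). Sele was at 45.3, 53.2, 48.8 and 74.0 CPM with p7N3 (0.58, 0.11 to 1.05, adjusted p = 0.565). Ackr1 (-0.06, -0.66 to 0.55), Icam1 (0.06, -0.38 to 0.50), Icam2 (-0.16, -0.36 to 0.05) and Vcam1 (0.32, -0.28 to 0.93) had intervals that include no difference.

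Within venular-like cells 2 of 4547 genes (0.044%) were called between p7N3 and day 7, and 0 of 6 members. Selp was at 1039, 1045, 1044 and 939 CPM with p7N3, above all 4 day 7 libraries and below the 4 of day 21. Its log2 fold change was 0.63 (SE 0.15, 95% interval 0.32 to 0.93), with an adjusted p = 0.159 by edgeR. The call depended on the setting, since without a filter on low counts the adjusted p was 0.00134 (0.66). In monocyte/macrophage-like cells 0 of 7 members and 1 of 10942 genes (0.00914%) were called, with 865 genes at an unadjusted p under 0.05, and DESeq2 called 22 genes and 0 members. Itga4 was at 31.1, 24.9, 25.3 and 29.7 CPM with p7N3, with a log2 fold change of -0.31 (95% interval -0.59 to -0.02, adjusted p = 0.603), and Selplg was at 121 to 137 CPM (-0.14, -0.31 to 0.04). In granulocyte-like cells 0 of 3 members and 0 of 1181 genes (0%) were called, with 11 cells in each of the 2 day 7 libraries used, which leaves intervals such as -0.79 to 1.17 for Selplg; 52 genes had an unadjusted p under 0.05, and DESeq2 called 2 genes and 0 members.

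The other genes of leukocyte trafficking were taken from a fixed list of 20 endothelial genes (junction, vessel wall and mucin genes) and 25 leukocyte genes, of which 44 were found in the tables. Of the 20, in endothelial-like cells, 17 were tested at day 3 (3 higher, 9 lower), 18 at day 7 (5 higher, 7 lower), 18 at day 21 (5 higher, 3 lower), 18 between days 21 and 7 (5 higher, 0 lower) and 18 with p7N3 (0 and 0). Among all genes 28.5%, 30.1%, 14.3% and 15.8% were higher and 27.3%, 29.2%, 13.7% and 15% lower in these comparisons over days. The median log2 fold changes of the list were -0.48, -0.18, 0.11 and 0.22. Plvap, which makes the diaphragms of endothelial openings, was higher at days 3, 7 and 21 (2.94, 2.92 and 2.47; SE 0.15, 0.16 and 0.27). Podxl, a sialomucin of the endothelial surface, was lower (-2.24, -1.95 and -0.83; SE 0.16, 0.11 and 0.11), and it rose from day 7 to day 21 (1.12, SE 0.13). Of the junction genes, Jam3 was lower at day 3 (-1.70, SE 0.17) and day 7 (-1.18, SE 0.12), and Jam2 was lower at day 7 (-1.50, SE 0.15) and rose from day 7 to day 21 (1.25, SE 0.17). Glycam1, a mucin that carries selectin ligands in lymph node venules, had no UMI in the 4 day 0 libraries and 21.7 to 51.1 CPM at day 7, at least 61.2-fold higher when 3 counts over the day 0 group are taken as the limit.

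Of the 25 leukocyte genes, in monocyte/macrophage-like cells, 17 were tested at day 3 (6 higher, 3 lower), 19 at day 7 (5 higher, 5 lower), 16 at day 21 (1 higher, 2 lower), 19 between days 21 and 7 (1 higher, 7 lower) and 24 with p7N3 (0 and 0). Among all genes 25.4%, 18.3%, 12% and 7.24% were higher and 27.7%, 17.1%, 13.4% and 6.83% lower over days. The median log2 fold changes of the list were -0.14, -0.16, -0.01 and -0.21. Itgav, the alpha chain of vitronectin receptors, was higher at days 3, 7 and 21 (2.20, 1.96 and 1.70; SE 0.23, 0.24 and 0.28). Itgax (CD11c), a partner of Itgb2, was higher at day 7 (2.47, SE 0.53), and Itga5, a fibronectin receptor chain, at day 3 (1.19, SE 0.19). Gcnt1, an enzyme that builds the sugars selectins bind, was lower at days 3, 7 and 21 (-1.14, -0.91 and -0.76; SE 0.21, 0.20 and 0.24). Itgal, the alpha chain that pairs with Itgb2 in LFA-1, was lower at day 21 than at day 7 (-0.63, SE 0.18), whereas Itgb2 itself did not pass the threshold there (-0.18, 95% interval -0.47 to 0.12).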

How the data were processed

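Single-cell libraries of the tenotomy site were made with droplet chemistry that tags each molecule with a UMI. The deposited files hold unnormalised UMI counts per gene and cell barcode, which the authors made with Cell Ranger; Seurat is also listed in the submitters' processing notes. These notes name mm10 for the replicate 4 libraries, which were added later, and GRCh38 for the others, while the gene names in all of them are those of the mouse. The role of GRCh38 is not given in the sources used here. Cells had to show 500 or more genes, with no more than 25% of UMIs from mitochondrial genes, no doublets were removed, and cells were clustered with scanpy 1.11.5 (2000 variable genes, 30 principal components, 20 neighbours, Leiden resolution 0.8; 0.6 within the endothelium). The adhesion and trafficking genes were left out of the variable genes. A cluster was named from marker lists that hold none of the 9 genes and is called by that name with the suffix -like.

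Counts were summed per library and class, and libraries with at least 10 cells of a class entered a comparison with at least 2 libraries in both groups. Pairs of groups were compared with edgeR 4.0.16 (TMM factors, filterByExpr, quasi-likelihood test, 2-sided), with the Benjamini-Hochberg adjustment over all genes tested and a threshold of 0.05. The SE was the size of the log2 fold change over the root of F, and intervals are 95%. The test was checked on simulated data. The study itself tested over cells; cells are not replicates, and sums per library were used in its place. Levels, shares of cells and likeness of pattern were not tested. The alternatives were DESeq2 1.42.0, RLE factors, other filters on genes and cells, removal of the 3.9% highest doublet scores, another clustering resolution, all 5 groups in 1 fit, a replicate block, replicates 1 to 3 only and each library left out. Cells were thinned to 1500 UMIs for the shares of cells with a UMI, with 1000 and 2000 UMIs as alternatives. The study's numbers 1 to 4 did not pair the libraries.

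The members, the marker lists and the lists of trafficking genes (named by their 3 largest changes in each direction) were chosen with earlier results of these data known. Some genes that these rules named are not reported here. Intervals cover the spread between these libraries as the fit estimates it, and limits on counts cover counting error only.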

Additional observations from a re-analysis of the deposited data

Results flagged for a closer look

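Of 100 groups of 4 libraries, 8 held a library far from the other 3, where chance gives about 1 in 20. In endothelial-like cells these were Selp in day 7 replicate 1 (241 CPM, others 93.5 to 104) and in p7N3 replicate 1 (302 CPM, others 202 to 206), and Icam1 in day 7 replicate 2 (84.1 CPM, others 134 to 143) and in p7N3 replicate 4 (196 CPM, others 102 to 117). Selp in venular-like cells of p7N3 replicate 4 was at 939 CPM against 1039 to 1045. In stromal-like cells they were Icam1 in day 0 replicate 1 (99.7 CPM, others 66.5 to 70.6), Itga4 in day 7 replicate 1 (1.63 CPM, others 0.98 to 1.04) and Itgb2 in p7N3 replicate 3 (5.43 CPM, others 6.40 to 6.57).

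In 12 pairs of classes a gene moved up in every library of one class and down in every library of the other under the same contrast. The differences between the log2 fold changes are given and were not tested. For Icam1 they were 3.05 at day 3 (endothelial-like against stromal-like), 3.70, 4.32 and 5.29 at day 7 (capillary-like against monocyte/macrophage-like, stromal-like and lymphatic-like), 2.77 and 2.37 at day 21 (endothelial-like against monocyte/macrophage-like and stromal-like) and 2.96 between days 21 and 7 (endothelial-like against capillary-like). The capillary-like values rest on 2 day 7 libraries, with a larger share of cells in the smaller capillary-like subcluster than days 0 and 21. Capillary-like cells are also a part of the endothelial-like class. For Ackr1, endothelial-like against stromal-like, they were 6.33, 7.21 and 5.72 at days 3, 7 and 21. The mix of cells within the endothelial-like, stromal-like and monocyte/macrophage-like classes moved between days, as given above. Its part in these differences was not tested. For Selplg at day 3 they were 4.02 and 4.27 (endothelial-like and stromal-like against monocyte/macrophage-like). Pooled Selplg was at 15.5 to 23.4 CPM in endothelial-like, stromal-like and pericyte/smooth muscle-like cells of day 3, from which no change of expression is read, and the monocyte/macrophage-like value (-0.08, not called) changed sign under 4 alternatives besides those that left out a library.

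The table of day 0 replicate 1 also holds barcodes of at most 100 UMIs, which no comparison used. They held 33 UMIs of Selp, 71 of Ackr1, 53 of Itga4, 113 of Vcam1, 116 of Selplg, 74 of Itgb2, 226 of Icam1 and 197 of Icam2, all above the limit of 3 counts, in 3798619 UMIs.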

How the results depend on the processing

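Of 104 fold changes followed through the alternatives, 18 changed sign under at least 1, and none of the 63 called did. The 104 were all those tested in endothelial-like, monocyte/macrophage-like and venular-like cells. In other classes only called ones were followed. Uncalled values reported for angiogenic-like cells and other such classes were therefore not put through the alternatives. The replicate block changed no count of members called in endothelial-like cells, which stayed at 8, 6, 5, 2 and 0; the correlations of same-numbered libraries ran from -0.09 to 0.17. With at least 10 UMIs in every library, fewer members were tested in endothelial-like cells and 3, 3 and 2 were called at days 3, 7 and 21. Between days 21 and 7 in these cells, replicates 1 to 3 alone gave 1 call and all 5 groups in a single fit gave 4, and leaving out 1 library gave 2 to 4 (4 without day 21 replicate 2). With p7N3 it gave 0 to 1, the call being Selp without day 7 replicate 1. In monocyte/macrophage-like cells between days 21 and 7, the single fit gave 1 and leaving out a library 0 to 1 (Itga4, 0.49, adjusted p = 0.0492, without day 7 replicate 3). Subclusters with markers of other cell types could be left out at all times but day 3, where too few cells remained. The endothelial-like values of day 3 rest on 97 cells, and low counts limit Sele and Itga4. Libraries were left out in turn for the endothelial-like, monocyte/macrophage-like and granulocyte-like classes only. Shares of cells with a UMI were also taken after thinning to 1000 and 2000 UMIs. Of these, 125 were rated as moved from the value at 1500 UMIs and 145 as the same. The thinned shares of Selp and Ackr1 given above are therefore tied to 1500 UMIs and are not free of depth. The causes of the changes were not tested.

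Signs changed in these uncalled differences. In endothelial-like cells, with replicates 1 to 3 alone, Sele was -0.13 between days 21 and 7, and Icam1 and Vcam1 were -0.15 and -0.10 with p7N3. With the replicate block Ackr1 was 0.082, and without lymphatic-like cells Icam1 was -0.046, both with p7N3. In monocyte/macrophage-like cells at day 3, Icam1 was 0.11 without a filter on low counts, 0.067 in the single fit and 0.048 at Leiden resolution 2, and Selplg was 0.12, 0.073 and 0.11 there and 0.013 with replicates 1 to 3. The lack of a filter moved the median of all genes in these cells by 0.34 at day 3 and 0.33 at day 7. Selplg was -0.0069 at day 21 with at least 1000 genes per cell and -0.019 between days 21 and 7 without the filter, and Itgb2 was -0.013 with p7N3 when the members were allowed as variable genes. In venular-like cells Icam2 was 0.065 between days 21 and 7 and Icam1 was -0.16 with p7N3 for replicates 1 to 3, and Ackr1 was 0.073 with p7N3 under the replicate block. With a library left out, endothelial-like values ran from -0.032 to 0.71 (Sele) and -0.42 to 0.14 (Ackr1) between days 21 and 7, and with p7N3 from -0.31 to 0.26 (Ackr1), -0.19 to 0.16 (Icam1) and -0.46 to 0.13 (Selplg). In monocyte/macrophage-like cells they ran from -0.13 to 0.14 (Icam1) and -0.088 to 0.10 (Selplg) at day 3, -0.059 to 0.12 (Selplg) at day 7, -0.028 to 0.058 (Selplg) at day 21, -0.023 to 0.082 (Selplg) and -0.0070 to 0.35 (Vcam1) between days 21 and 7, and -0.40 to 0.0054 (Icam2), -0.050 to 0.13 (Itgb2) and -0.0031 to 0.28 (Vcam1) with p7N3. Counts of all genes called moved by over 1.5 times in these cases. With p7N3, no filter gave 12 against 0 in endothelial-like cells and 21 against 0 in granulocyte-like cells, and in monocyte/macrophage-like cells DESeq2 gave 22, no filter 53, the block 2, replicates 1 to 3 alone 4, the single fit 2, and removal of high doublet scores and the members as variable genes 0 each, against 1. In monocyte/macrophage-like cells, at least 10 UMIs in every library gave 2043 against 3364 at day 3 and 1901 against 3340 at day 7, and replicates 1 to 3 alone 1156 against 1762 at day 21.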
